A study of Citrullus lanatus with 36 samples.

Results

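Flesh of the homozygous *Cmnor* melon was compared with flesh of the heterozygote *CmNOR/Cmnor* at 4 stages, taken separately and as their mean. These were 33 days after pollination (DAP), 36 DAP, 39 DAP, and 36 DAP fruit stored for 6 d. The libraries were chosen by genotype label alone, 24 of the 36 libraries of the series, 3 for each genotype and stage, and the remaining 12 came from wild type (WT) fruit, which enters the fit and the contrast of alleles at the end and is otherwise context. All genes of the table were considered. It names 25121 genes, of which 24901 were tested, the remaining 220 having no value above 0. The paper describes *Cmnor* as a knockout of the ripening gene *CmNOR*. On that reading *Cmnor* fruits carried no working copy and *CmNOR/Cmnor* fruits carried 1. The function of the edited allele was not tested here. *Cmnor* is 1 gene-edited line of the oriental melon BY9H with a deletion in the NAC domain of *CmNOR*, and *CmNOR/Cmnor* is the F1 of a cross between that line and its parent, so both genotypes carry the edited allele and share the BY9H background. The *Cmnor* values thus come from 1 editing event. The 33, 36 and 39 DAP fruits were sampled as fresh fruit and 36 DAP fruits also served as day 0 of storage. The labels do not tie each library to its own melon, so the p values measure the spread between these libraries, which may be partly technical. *CmNOR* itself is not paired with an identifier in the sources used here, and its level was not analysed here.

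NOR proteins are transcription factors of the plant-specific NAC family and are known from tomato. There the spontaneous *nor* mutant fails to build up the carotenoid lycopene as WT does. Tomato fruits with an edited *NOR* were reported to ripen, with less lycopene than WT. Melon is a climacteric fruit: ripening comes with a burst of the gas ethylene, made from 1-aminocyclopropane-1-carboxylate (ACC) by ACC synthase and ACC oxidase. In ripening flesh, sugars and carotenoids build up, cell walls loosen, and aroma esters are made from amino acids and fatty acids, the last step being done by alcohol acyltransferases.

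Levels are given in the deposited unit, FPKM, in which the fragments mapped to a gene are scaled by its transcript length and by the library's total. The steps between low values gave an estimated depth of 28800000 to 37000000 fragments in *Cmnor* libraries and 25400000 to 33900000 fragments in *CmNOR/Cmnor* libraries. A single fragment mapped to a 1 kb transcript then equals 0.027 to 0.039 FPKM, and differences between levels of this size were not detectable. Libraries of a group correlated with r of 0.968 or more over log2 levels. The labels name *Citrullus lanatus*, the watermelon, whereas 23232 of the gene identifiers are those of melon, 21294 of the gene descriptions name *Cucumis melo* and 6 name *Citrullus*. *Cmnor* libraries held 15240 to 16117 genes at 1 FPKM or more, against 13355 to 14204 in *CmNOR/Cmnor* libraries. Markers of other tissues were present in both genotypes: phloem markers, which mark the sugar-conducting vessels, summed to 2577 to 11453 FPKM in *Cmnor* libraries, with none of the 33 genes at 0 in all 12 libraries, against 82.6 to 3153 FPKM in *CmNOR/Cmnor* libraries, with 5 at 0. Xylem and secondary wall markers (46 genes) summed to 193 to 371 FPKM in *Cmnor* libraries, with 4 at 0, against 37.4 to 118 FPKM in *CmNOR/Cmnor* libraries, with 6 at 0. The sums of the epidermis and rind markers (30 genes, with 5 and 4 at 0) were 73.5 to 160.4 FPKM in *Cmnor* and 23.8 to 112 FPKM in *CmNOR/Cmnor*, and those of the seed markers (14 genes, with 1 and 3 at 0) were 72.4 to 109.7 FPKM in *Cmnor* and 44.5 to 96.4 FPKM in *CmNOR/Cmnor*. The part of these tissues in the results was not tested, and in whole flesh fewer cells of a type and less RNA per cell cannot be told apart.

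More genes were higher in *Cmnor* than were lower. A differentially expressed gene (DEG) was called by limma on log2(FPKM + 1), with an adjusted p under 0.05 and a change, up or down, of 1 or more log2 units. This scale understates the change of low genes. At 33 DAP, 5647 genes (22.7% of those tested) were DEGs with higher levels in *Cmnor* and 1483 (5.96%) with lower levels. The counts were 5566 higher (22.4%) and 1599 lower (6.42%) at 36 DAP, 5267 (21.2%) and 1839 (7.39%) at 39 DAP, and 5855 (23.5%) and 1576 (6.33%) after storage. In the average over stages, 5332 genes (21.4%) were DEGs in the higher direction and 1333 (5.35%) in the lower one. The excess of higher genes depended on the scaling of the libraries. Among the 15407 genes averaging 1 FPKM or more the median log2 fold change was 0.58 at 33 DAP, 0.51 at 36 DAP, 0.39 at 39 DAP, 0.56 after storage and 0.51 in the average. When each library was scaled to the same median, 3107 DEGs of the average over stages were higher in *Cmnor* and 2528 lower, so that the split was closer to even, and after storage it was 3311 higher and 3225 lower. Counts of gene groups are therefore given both as deposited and with this scaling, counting as risen or fallen each member with an adjusted p under 0.05 in the average over stages. Over all genes tested, 55.8% rose and 18.5% fell in this sense as deposited (median log2 fold change 0.21), and 37.5% and 34.3% with the scaling (median 0.00), and the counts of each group are to be set beside these shares. At single stages as deposited, 49.2% rose and 14.0% fell at 33 DAP, 47.1% and 15.6% at 36 DAP, 42.1% and 19.6% at 39 DAP, and 47.5% and 15.0% after storage.

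**Figure D1:**
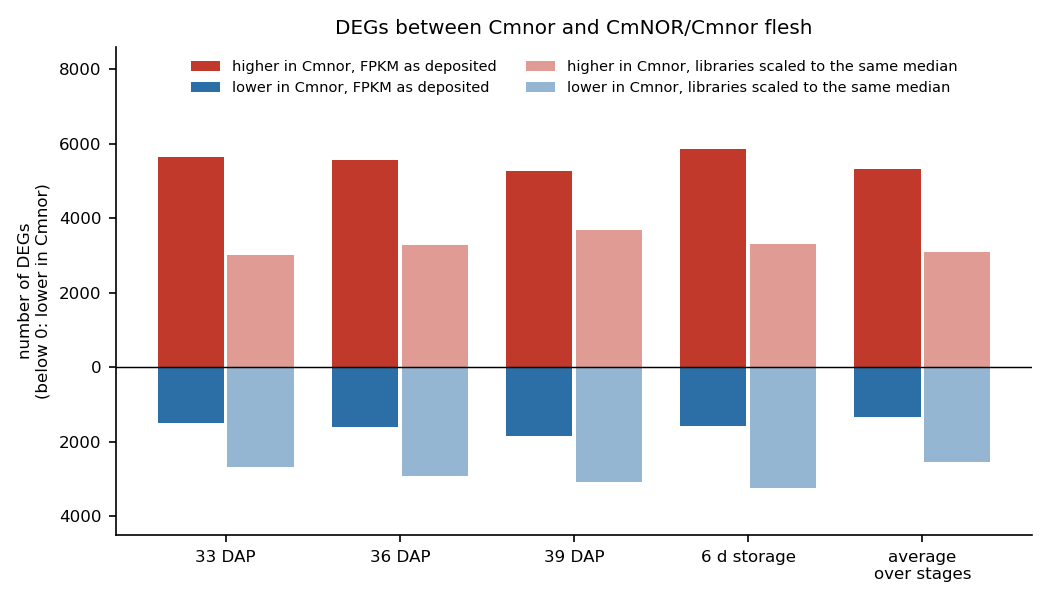
Number of DEGs (y axis) between *Cmnor* and *CmNOR/Cmnor* flesh at each stage and in the average over stages (x axis). Bars above 0 count genes higher in *Cmnor* and bars below 0 genes lower in *Cmnor*. With FPKM as deposited (dark bars) 5267 to 5855 genes were higher at the 4 stages, and with the libraries scaled to the same median (light bars) the higher and lower counts were closer to even.

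Across stages, 11815 genes were DEGs at 1 stage or more. Of all genes tested, 2634 (10.6%) were higher DEGs and 648 (2.60%) lower DEGs at all 4 stages. Only 363 genes were DEGs in opposite directions at different stages. At each stage different libraries were compared, and for any pair of stages 62.3 to 72.5% of the DEGs of one were DEGs in the same direction in the other. The pair of 36 and 39 DAP shared the most, with 71.9 and 72.5% of their DEGs. In the average over stages, 661 genes had a log2 fold change of at least 3 toward higher levels in *Cmnor* and 220 toward lower ones, while at 5 or more the numbers were 66 and 61. At 5 or more, higher and lower genes numbered 70 and 75 at 33 DAP, 140 and 64 at 36 DAP, 140 and 63 at 39 DAP, and 164 and 76 after storage, so that the near balance of the average was seen at 33 DAP alone. In 99 genes all 12 *CmNOR/Cmnor* libraries were at 0 while *Cmnor* averaged 1 FPKM or more at some stage, and the reverse held for 61 genes.

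The most abundant genes of *CmNOR/Cmnor* flesh were lower in *Cmnor*. The 10 genes with the highest mean in *CmNOR/Cmnor* together took 11.2 to 15.4% of all FPKM in its libraries, against 0.319 to 0.495% in *Cmnor* libraries, and all 10 were lower in *Cmnor* by a log2 fold change of 1 or more. They included ACC oxidase 1, an alcohol acyltransferase, a branched-chain aminotransferase, aquaporins PIP2-10 and PIP1-2 and a light-harvesting protein. Their log2 fold changes ran from -2.79 to -8.13. These 10 were chosen by their *CmNOR/Cmnor* level after the values were seen, which favours a lower level in *Cmnor*. The 10 highest genes of *Cmnor* took 4.91 to 7.19% of FPKM in *Cmnor* libraries, against 1.79 to 2.83% in *CmNOR/Cmnor* libraries, and 8 of them were higher in *Cmnor* by a log2 fold change of 1 or more. Among these 8, chosen by level after the values were seen, were a homolog of translationally controlled tumor protein and a snakin-2-like peptide, the last a small antimicrobial protein.

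Genes for aroma esters held several of the largest decreases. MELO3C024771.2, annotated as benzyl alcohol O-benzoyltransferase, an enzyme that joins an acyl group to an alcohol, lies at chr11:8184873-8187698 of the melon DHL92 genome. Its levels at 33 DAP were 30.8, 25.2 and 27.1 FPKM in *Cmnor*, against 13445, 15467 and 13514 FPKM in *CmNOR/Cmnor*. It had 57.0, 91.2 and 50.3 FPKM in *Cmnor*, against 13921, 13594 and 13379.9 FPKM in *CmNOR/Cmnor* at 36 DAP. Over all stages they were 25.2 to 91.2 FPKM (median 52.9) in the 12 *Cmnor* libraries, against 10822 to 15467 FPKM (median 13117) in the 12 *CmNOR/Cmnor* libraries. No *Cmnor* library overlapped with any *CmNOR/Cmnor* library. Absence of overlap within a stage was a condition for choosing the largest changes of the average and of each stage. For such genes, here and below, it is no separate result. For genes chosen otherwise it only describes their levels, as its share over all genes is not given. The log2 fold change was -8.95 ± 0.25 at 33 DAP, -7.71 ± 0.25 at 36 DAP, -7.58 ± 0.25 at 39 DAP and -7.77 ± 0.25 after storage, with an adjusted p of 2.8e-28 for the average, and it was widest at 33 DAP. WT flesh averaged 11595 FPKM, within the range of *CmNOR/Cmnor*. A second gene of the same stretch of chromosome 11, the putative acyltransferase MELO3C024766.2 at chr11:8060892-8063565, had 4.59 to 15.4 FPKM (median 7.86) in the 12 *Cmnor* libraries, against 1538 to 3949 FPKM (median 2019) in the 12 *CmNOR/Cmnor* libraries (log2 fold change -7.98 ± 0.10 (SE), adjusted p = 1.5e-30). Both were thus low in every *Cmnor* library. Further along this stretch, MELO3C024762.2 (chr11:7933534-7935291) went the other way, with 0.551 to 9.84 FPKM in *Cmnor* and 0.0525 to 0.936 FPKM in *CmNOR/Cmnor* (log2 fold change 1.61 ± 0.11 (SE), adjusted p = 1.2e-13). MELO3C024764.2 (chr11:7963408-7965077) was near 0 in both genotypes, at 0 to 0.677 FPKM in *Cmnor* and 0 to 0.144 FPKM in *CmNOR/Cmnor*, although it passed the test (log2 fold change 0.18 ± 0.02 (SE), adjusted p = 3.4e-11). The list of alcohol acyltransferases had 4 members, of which 2 rose and 1 fell with either scaling, the one that fell being MELO3C024771.2. The neighbouring genes set beside each other, here and for other families, were chosen after their values were seen.

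Branched-chain aminotransferases remove the amino group from leucine, isoleucine and valine, the start of branched esters. MELO3C010776.2, branched-chain aminotransferase 2 (chr3:30937275-30942119), had 36.5, 48.3 and 39.6 FPKM in *Cmnor*, against 8099, 8059.9 and 8976 FPKM in *CmNOR/Cmnor* at 39 DAP. Over all stages the levels were 23.1 to 89.8 FPKM (median 40.7) in the 12 *Cmnor* libraries, against 7139.8 to 8976 FPKM (median 7948) in the 12 *CmNOR/Cmnor* libraries (log2 fold change -7.58 ± 0.10 (SE), adjusted p = 7.4e-30), with no overlap. Relatives of lower level went up instead: MELO3C007664.2 had means of 38.9 FPKM in *Cmnor* and 3.21 FPKM in *CmNOR/Cmnor* (log2 fold change 3.30 ± 0.07 (SE), adjusted p = 6.2e-25) and MELO3C004297.2 had means of 17.4 FPKM in *Cmnor* and 3.14 FPKM in *CmNOR/Cmnor* (log2 fold change 2.10 ± 0.07 (SE), adjusted p = 1.6e-21). Of the 6 amino acid aroma genes, 4 rose and 1 fell, and with scaling 3 rose and 1 fell. MELO3C009145.2, pyruvate decarboxylase 1, which makes acetaldehyde from pyruvate, was at 29.2 to 245 FPKM (median 80.2) in the 12 *Cmnor* libraries, against 2258 to 9100.5 FPKM (median 3011) in the 12 *CmNOR/Cmnor* libraries (log2 fold change -5.41 ± 0.05 (SE), adjusted p = 2.1e-32). A like contrast stood between neighbouring alcohol dehydrogenases, which turn aldehydes into alcohols: MELO3C026553.2 (chr3:24852658-24856344) had 0.563 to 6.02 FPKM in *Cmnor* and 18.1 to 33.2 FPKM in *CmNOR/Cmnor* (log2 fold change -2.67 ± 0.06 (SE), adjusted p = 1.7e-25), whereas MELO3C026554.2 (chr3:24865113-24868989) had 194 to 556 FPKM in *Cmnor* and 41.9 to 101 FPKM in *CmNOR/Cmnor* (log2 fold change 2.16 ± 0.05 (SE), adjusted p = 3.8e-25). In the whole list of alcohol dehydrogenases and pyruvate decarboxylases 9 of the 16 tested members rose and 3 fell, and with the libraries scaled to the same median 4 rose and 7 fell, so that its balance turned with the scaling. Lipoxygenases, which start the breakdown of fatty acids into aroma aldehydes, gave 17 higher and 3 lower of 29, and with scaling 15 rose and 3 fell. As deposited, the share of higher members was 58.6%, near the 55.8% of all genes. MELO3C024348.2, a 13-lipoxygenase, had 12.05 to 133 FPKM in *Cmnor* and 0.218 to 43.8 FPKM in *CmNOR/Cmnor* (log2 fold change 3.65 ± 0.22 (SE), adjusted p = 9.5e-15).

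Cytochrome P450 enzymes, which oxidise a wide range of small molecules, split: 65 of the 144 tested members rose and 44 fell, and with scaling 46 rose and 53 fell, so that the larger side depended on the scaling. The share of lower members was 30.6% as deposited, against 18.5% of all genes, and 36.8% with scaling, against 34.3%. Those that fell included the most abundant one, MELO3C025798.2 (71A1-like, chr4:18620250-18622212), with 2.61 to 10.4 FPKM (median 4.75) in the 12 *Cmnor* libraries, against 1266 to 2763 FPKM (median 1604) in the 12 *CmNOR/Cmnor* libraries (log2 fold change -8.19 ± 0.12 (SE), adjusted p = 3.3e-29). MELO3C002311.2, another 71A1-like gene (chr12:24971608-24976717), had 0.874 to 4.995 FPKM (median 2.09) in the 12 *Cmnor* libraries, against 436 to 1269 FPKM (median 656) in the 12 *CmNOR/Cmnor* libraries (log2 fold change -7.77 ± 0.12 (SE), adjusted p = 2.6e-28). In contrast, MELO3C022665.2, 71A1-like as well, had 8.74 to 138 FPKM in *Cmnor* and 0.349 to 3.08 FPKM in *CmNOR/Cmnor* (log2 fold change 4.81 ± 0.15 (SE), adjusted p = 2.8e-21). How reads shared by near-identical relatives were counted was not found in the sources, and the split between such relatives, here and in other families, is uncertain. MELO3C012324.2, annotated as a steroid 4-dehydrogenase of the kind that acts in brassinosteroid synthesis, was among the 5 most abundant genes of *CmNOR/Cmnor* flesh and had 11.2 to 78.0 FPKM (median 30.1) in the 12 *Cmnor* libraries, against 5968 to 10569 FPKM (median 7729) in the 12 *CmNOR/Cmnor* libraries (log2 fold change -8.13 ± 0.13 (SE), adjusted p = 8.4e-28). MELO3C006965.2, a hevamine-like chitinase, had 5.51, 5.94 and 4.72 FPKM in *Cmnor*, against 5331, 4587 and 5815 FPKM in *CmNOR/Cmnor* at 33 DAP, the largest decrease at any stage among the named genes (log2 fold change -9.68 ± 0.28 (SE), adjusted p = 2.2e-21).

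The largest increases were in genes nearly silent in *CmNOR/Cmnor* flesh. MELO3C015643.2, L-ascorbate oxidase, which oxidises vitamin C in the cell wall (chr2:3838472-3846965), had 1319, 1553 and 1609.9 FPKM in *Cmnor*, against 0.813, 1.31 and 1.31 FPKM in *CmNOR/Cmnor* at 36 DAP. Over the stages its levels were 428 to 1609.9 FPKM (median 799) in the 12 *Cmnor* libraries, against 0.799 to 3.92 FPKM (median 1.29) in the 12 *CmNOR/Cmnor* libraries (log2 fold change 8.40 ± 0.08 (SE), adjusted p = 7.8e-33). Every *Cmnor* library was far above every *CmNOR/Cmnor* library. MELO3C006476.2, the auxin-responsive repressor IAA14, had 183 to 441 FPKM (median 300.0) in the 12 *Cmnor* libraries, against 0.190 to 0.823 FPKM (median 0.524) in the 12 *CmNOR/Cmnor* libraries (log2 fold change 7.60 ± 0.07 (SE), adjusted p = 6.8e-33). The calcium-binding protein KIC (MELO3C022259.2) had 94.8 to 642 FPKM (median 366) in the 12 *Cmnor* libraries, against 0.193 to 1.47 FPKM (median 0.453) in the 12 *CmNOR/Cmnor* libraries (log2 fold change 7.45 ± 0.11 (SE), adjusted p = 4.4e-29). All 3 genes were also low in WT flesh, with means of 0.886, 1.12 and 0.705 FPKM. MELO3C009736.2, a transporter of the nitrate and peptide (NRT1/PTR) family, had 185 to 723 FPKM in *Cmnor* and 0.325 to 13.2 FPKM in *CmNOR/Cmnor* (log2 fold change 6.70 ± 0.07 (SE), adjusted p = 5.0e-32). The peroxidase MELO3C009329.2 (peroxidase 21-like) had 195 to 1520.4 FPKM in *Cmnor* and 1.04 to 4.95 FPKM in *CmNOR/Cmnor* (log2 fold change 7.17 ± 0.09 (SE), adjusted p = 3.6e-30), and peroxidase 2 (MELO3C014658.2) had 85.7 to 209 FPKM in *Cmnor* and 0.0248 to 0.317 FPKM in *CmNOR/Cmnor* (log2 fold change 6.76 ± 0.05 (SE), adjusted p = 3.4e-34). MELO3C011008.2, the snakin-2-like gene, had 2757, 2566 and 2624 FPKM in *Cmnor*, against 143, 139 and 147 FPKM in *CmNOR/Cmnor* at 33 DAP. It had 3849.5, 3864 and 3935 FPKM in *Cmnor*, against 6.19, 8.98 and 5.90 FPKM in *CmNOR/Cmnor* after storage. Its log2 fold changes were 4.20 ± 0.22 at 33 DAP, 4.65 ± 0.22 at 36 DAP, 7.66 ± 0.22 at 39 DAP and 8.94 ± 0.22 after storage, and the difference between 39 and 33 DAP was 3.45 ± 0.31. The widening lay mainly in *CmNOR/Cmnor*, whose level was lowest after storage.

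**Figure D2:**
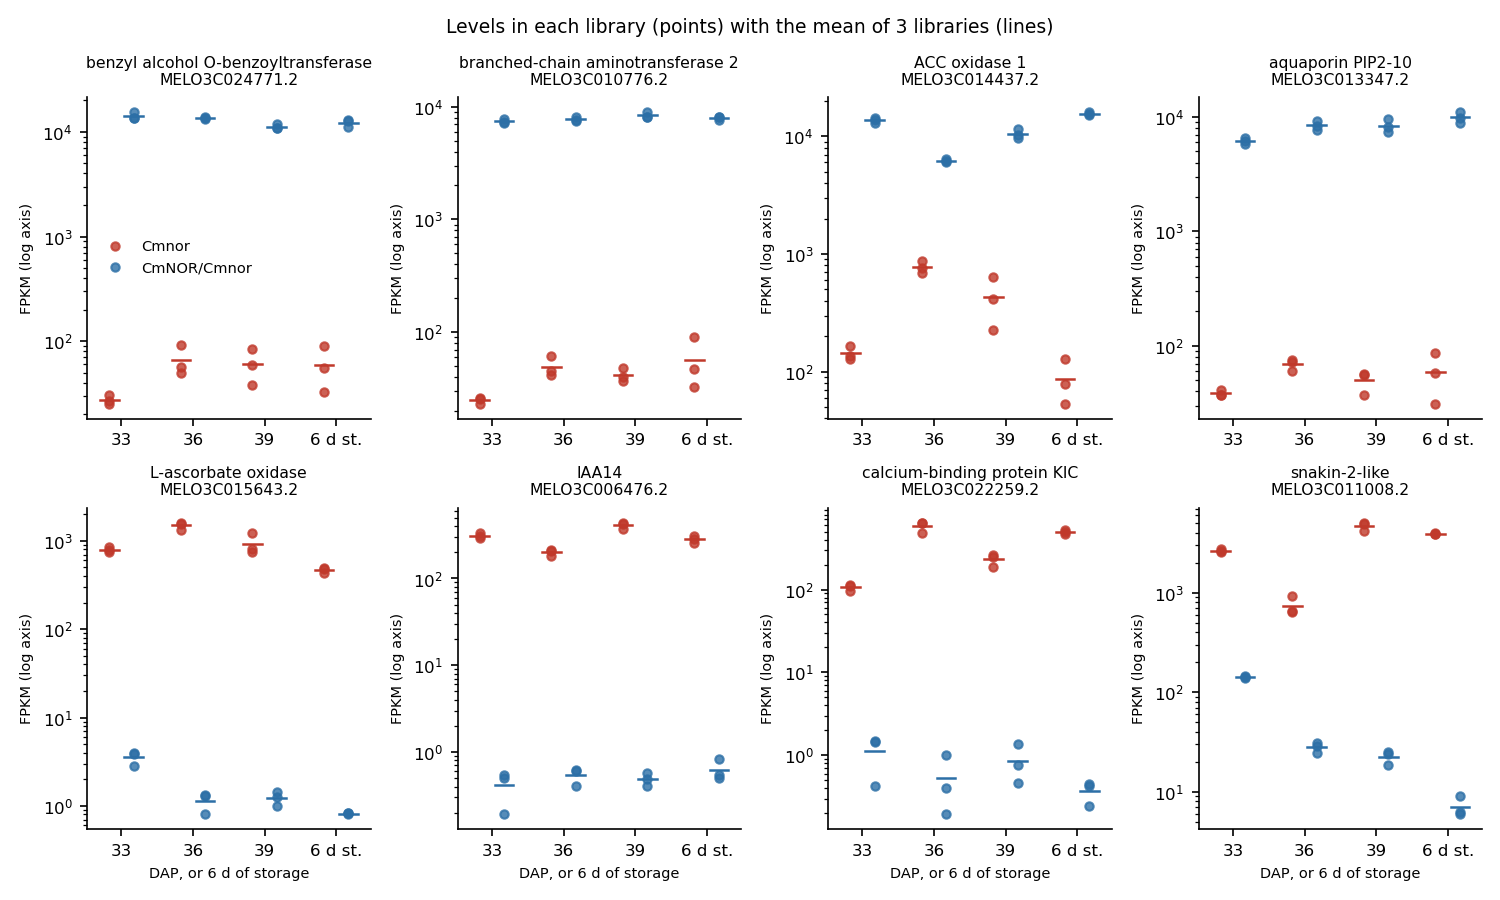
FPKM on a log axis (y axis) in each library by stage (x axis, DAP or storage), *Cmnor* left and *CmNOR/Cmnor* right at each stage, with lines at the mean of 3 libraries. The 4 upper genes were lower in every *Cmnor* library than in any *CmNOR/Cmnor* library and the 4 lower genes were higher in every one. Absence of overlap within a stage was a condition for choosing the largest changes, so it is no separate result for such genes. ACC oxidase 1 had its smallest gap at 36 DAP.

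The most abundant genes of both steps of ethylene synthesis were lower in *Cmnor*. MELO3C021182.2, the most abundant ACC synthase (chr11:31526801-31530474), had 0.284, 0.351 and 0.487 FPKM in *Cmnor*, against 708, 552 and 669 FPKM in *CmNOR/Cmnor* at 33 DAP. It had 1.58, 1.49 and 1.79 FPKM in *Cmnor*, against 17.4, 15.5 and 16.1 FPKM in *CmNOR/Cmnor* at 36 DAP. Its log2 fold changes were -8.87 ± 0.30 at 33 DAP, -2.73 ± 0.30 at 36 DAP, -4.23 ± 0.30 at 39 DAP and -5.35 ± 0.30 after storage. The drop between 33 and 36 DAP took place in *CmNOR/Cmnor*, while *Cmnor* stayed under 2 FPKM throughout. A different ACC synthase, MELO3C016340.2, had the reverse pattern, with 16.1, 17.1 and 13.7 FPKM in *Cmnor*, against 0, 0 and 0.0274 FPKM in *CmNOR/Cmnor* at 36 DAP. It had 9.57, 31.9 and 16.4 FPKM in *Cmnor*, against 0.0182, 0 and 0.0648 FPKM in *CmNOR/Cmnor* at 39 DAP (log2 fold change 4.15 ± 0.22 (SE), adjusted p = 1.7e-15 at 39 DAP). Of the 4 ACC synthases tested, 1 rose and 3 fell in the average over stages, and these counts were the same with the scaling. The same counts were found at 33 DAP alone, whereas 1 rose and 1 fell at 36 DAP, at 39 DAP and after storage.

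ACC oxidase 1 (MELO3C014437.2, chr5:2408689-2410670), the enzyme of the last step, had 137, 164 and 128 FPKM in *Cmnor*, against 13802, 14338 and 13036 FPKM in *CmNOR/Cmnor* at 33 DAP. It had 689, 875 and 753 FPKM in *Cmnor*, against 6396, 6160.3 and 6011 FPKM in *CmNOR/Cmnor* at 36 DAP. It had 53.2, 128 and 78.9 FPKM in *Cmnor*, against 16091, 15570.0 and 15103 FPKM in *CmNOR/Cmnor* after storage. Its log2 fold changes were -6.58 ± 0.25 at 33 DAP, -3.01 ± 0.25 at 36 DAP, -4.73 ± 0.25 at 39 DAP and -7.57 ± 0.25 after storage. In *Cmnor* the level was highest at 36 DAP and lowest after storage, whereas in *CmNOR/Cmnor* it was lowest at 36 DAP and highest after storage. The second most abundant ACC oxidase, MELO3C019735.2, did not pass the test at 33, 36 or 39 DAP as deposited (adjusted p = 0.93, 0.24 and 0.12). After storage it had 232, 273 and 278 FPKM in *Cmnor*, against 48.2, 33.1 and 39.5 FPKM in *CmNOR/Cmnor* (log2 fold change 2.68 ± 0.17 (SE), adjusted p = 6.5e-14). The 10 ACC oxidases summed to 330.5 to 1106 FPKM (median 467) in *Cmnor* libraries, against 6312 to 16216 FPKM (median 12586) in *CmNOR/Cmnor* libraries, although 6 rose and only 3 fell, and with scaling 2 rose and 4 fell, so that the direction of the count turned while that of the sum was set by 1 gene.

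Receptors and signal carriers of ethylene had a median log2 fold change of 0.04. Of the 16 genes, 8 rose and 5 fell as deposited, and with scaling 3 rose and 10 fell, so that the larger side turned. The transcription factor ETHYLENE INSENSITIVE 3 (MELO3C015633.2) had 216 to 391 FPKM in *Cmnor* and 78.5 to 191 FPKM in *CmNOR/Cmnor* (log2 fold change 1.04 ± 0.05 (SE), adjusted p = 4.1e-18), and an ethylene receptor (MELO3C006451.2) had 35.9 to 169 FPKM in *Cmnor* and 59.97 to 192 FPKM in *CmNOR/Cmnor* (log2 fold change -0.25 ± 0.05 (SE), adjusted p = 2.1e-05). Downstream, the ethylene-responsive factor (ERF) family was largely higher: 87 of the 109 tested members rose and 4 fell, with a median log2 fold change of 1.12, and with scaling 81 rose and 10 fell (median 0.68). MELO3C023458.2 had 1.25 to 109 FPKM in *Cmnor* and 0 to 0.0956 FPKM in *CmNOR/Cmnor* (log2 fold change 4.12 ± 0.16 (SE), adjusted p = 1.6e-19). MELO3C005747.2 had 2.21 to 114 FPKM in *Cmnor* and 0.0243 to 0.524 FPKM in *CmNOR/Cmnor* (log2 fold change 4.04 ± 0.11 (SE), adjusted p = 2.9e-23). The most abundant member, an RAP2-type factor (MELO3C024315.2), had means of 751 FPKM in *Cmnor* and 269 FPKM in *CmNOR/Cmnor* (log2 fold change 1.46 ± 0.03 (SE), adjusted p = 8.3e-25). Among the few that fell was WRI1 (MELO3C012314.2), known in Arabidopsis as a regulator of oil synthesis, with 0.246 to 2.09 FPKM in *Cmnor* and 5.46 to 20.4 FPKM in *CmNOR/Cmnor* (log2 fold change -2.61 ± 0.08 (SE), adjusted p = 2.6e-21).

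Among other regulator families, the share of higher members was 72.6% for NAC, 67.2% for WRKY and 56.1% for MADS-box genes, against 55.8% of all genes, so that the MADS-box share was at that of all genes. For the NAC family, to which *CmNOR* belongs, 45 of the 62 tested members rose and 8 fell, and with scaling 34 rose and 15 fell. NAC29 (MELO3C012114.2) had 38.7 to 141 FPKM in *Cmnor* and 0.861 to 7.93 FPKM in *CmNOR/Cmnor* (log2 fold change 4.20 ± 0.10 (SE), adjusted p = 1.1e-23), whereas MELO3C009236.2 (NAC105-like) had 0 to 0.0300 FPKM in *Cmnor* and 0.705 to 5.81 FPKM in *CmNOR/Cmnor* (log2 fold change -2.02 ± 0.08 (SE), adjusted p = 1.5e-18). The most abundant NAC gene, NAC56 (MELO3C016540.2), had means of 1344 FPKM in *Cmnor* and 897 FPKM in *CmNOR/Cmnor* (log2 fold change 0.61 ± 0.05 (SE), adjusted p = 1.3e-11), a rise that was not seen with scaling (log2 fold change -0.05). In the MADS-box family, known for flower and fruit identity, 23 of the 41 tested members rose and 4 fell, and with scaling 19 rose and 6 fell. AGL80 (MELO3C015239.2) had 4.17 to 134 FPKM (median 82.4) in the 12 *Cmnor* libraries, against 0 to 0.249 FPKM (median 0.0503) in the 12 *CmNOR/Cmnor* libraries (log2 fold change 5.52 ± 0.05 (SE), adjusted p = 7.8e-33), and the abundant AGAMOUS-like gene MELO3C002691.2 had 619 to 993 FPKM in *Cmnor* and 139 to 511 FPKM in *CmNOR/Cmnor* (log2 fold change 1.69 ± 0.09 (SE), adjusted p = 1.3e-15). Side by side on chromosome 11, the MADS-box genes MELO3C022315.2 (chr11:32738860-32756303) and MELO3C022316.2 (chr11:32762765-32769297) went opposite ways, with average log2 fold changes of 3.95 ± 0.10 and -0.89 ± 0.15. Of WRKY factors, regulators of defense and aging, 41 of the 61 tested members rose and 7 fell, and with scaling 38 rose and 13 fell. WRKY70 (MELO3C009097.2) and WRKY40 (MELO3C026740.2) rose (3.85 ± 0.09 and 3.76 ± 0.19), and WRKY75 (MELO3C014896.2), which promotes leaf aging in Arabidopsis, fell (-3.20 ± 0.10, with 1.41 to 13.2 FPKM in *Cmnor* and 29.2 to 94.8 FPKM in *CmNOR/Cmnor*).

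Transcripts of ribosomal proteins of the cytosol were raised together: 156 of the 172 tested members rose and 2 fell, with a median log2 fold change of 1.31. With scaling 143 rose and 11 fell (median 0.68), so the direction held after the shift of all genes was taken out. Ribosomal protein L15-2 (MELO3C005520.2) had 176 to 354 FPKM in *Cmnor* and 38.2 to 81.4 FPKM in *CmNOR/Cmnor* (log2 fold change 2.40 ± 0.06 (SE), adjusted p = 2.1e-24). After storage the picture changed: 134 members rose and 5 fell as deposited, against 47.5% and 15.0% of all genes, but with scaling 52 rose and 48 fell, against 29.1% and 31.1%. The difference of the 2 effects was itself past the test, the effect after storage being smaller than that at 36 DAP for 127 of the 172 genes and larger for 7, against 19.9% and 23.9% of all genes. Housekeeping genes, set as a control list, gave 75 higher and 17 lower of 105, and 44 higher and 48 lower with scaling, so they had no common direction once scaled.

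Photosynthesis genes were the clearest lower group. Of the photosystem and antenna genes, which capture light, 4 of the 63 tested members rose and 50 fell (median log2 fold change -1.92), and with scaling 2 rose and 52 fell. Their summed level was 1429.8 to 3812 FPKM (median 2008) in *Cmnor* libraries, against 16986 to 38585 FPKM (median 27901) in *CmNOR/Cmnor* libraries. The light-harvesting gene MELO3C002727.2 (LHCII) had 53.4, 62.0 and 42.7 FPKM in *Cmnor*, against 7058, 7748 and 7179 FPKM in *CmNOR/Cmnor* at 36 DAP, and 42.7 to 233 FPKM (median 68.3) in the 12 *Cmnor* libraries, against 3102 to 8630.3 FPKM (median 5953) in the 12 *CmNOR/Cmnor* libraries over all stages (log2 fold change -5.87 ± 0.10 (SE), adjusted p = 1.4e-27). Other antenna genes behaved alike: MELO3C016556.2 had 5.49 to 20.7 FPKM in *Cmnor* and 495 to 1329 FPKM in *CmNOR/Cmnor* (log2 fold change -6.16 ± 0.11 (SE), adjusted p = 2.1e-27). CP26 (MELO3C022113.2) had 9.55 to 35.8 FPKM in *Cmnor* and 430.4 to 1133 FPKM in *CmNOR/Cmnor* (log2 fold change -5.34 ± 0.09 (SE), adjusted p = 8.9e-28). None of these overlapped between genotypes at any stage, which only describes their levels, as the share over all genes is not given. Of the genes that the deposited pathway column places in the Calvin cycle, 45 of the 106 tested members rose and 48 fell, and with scaling 32 rose and 60 fell, a turn toward lower. Among the members that fell were phosphoribulokinase (MELO3C026722.2, log2 fold change -3.21 ± 0.08 (SE), adjusted p = 1.4e-23) and chloroplast fructose-bisphosphate aldolase 1 (MELO3C023354.2, means of 61.9 FPKM in *Cmnor* and 567 FPKM in *CmNOR/Cmnor*, log2 fold change -3.09 ± 0.06 (SE), adjusted p = 8.3e-26). Members with the largest rises were not enzymes of the cycle by description: metal-nicotianamine transporters MELO3C002171.2 (3.0 ± 0.09) and MELO3C019384.2 (2.63 ± 0.07), which carry iron complexes, and a WAT1-related protein MELO3C031341.2 (2.40 ± 0.08).

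Genes for the early steps of carotenoid synthesis were lower in *Cmnor*. Phytoene synthase 1 (*PSY1*, MELO3C025102.2, chr9:14553133-14556862), which makes the first carotenoid, had 51.0, 55.8 and 57.8 FPKM in *Cmnor*, against 135, 134 and 146 FPKM in *CmNOR/Cmnor* at 33 DAP. It had 16.3, 20.2 and 16.9 FPKM in *Cmnor*, against 225, 220.4 and 236 FPKM in *CmNOR/Cmnor* after storage. Its log2 fold changes were -1.32 ± 0.08 at 33 DAP, -2.65 ± 0.08 at 36 DAP, -2.45 ± 0.08 at 39 DAP and -3.61 ± 0.08 after storage, and the difference between storage and 36 DAP was -0.96 ± 0.12. The *Cmnor* level was lowest after storage, and that of *CmNOR/Cmnor* was lowest at 33 DAP. Phytoene desaturase (*PDS*, MELO3C017772.2) had 36.2 to 93.0 FPKM (median 47.9) in the 12 *Cmnor* libraries, against 233 to 387 FPKM (median 311) in the 12 *CmNOR/Cmnor* libraries (log2 fold change -2.53 ± 0.05 (SE), adjusted p = 3.3e-25). *PSY2* (MELO3C014677.2) had 0.0223 to 0.424 FPKM in *Cmnor* and 7.70 to 20.2 FPKM in *CmNOR/Cmnor* (log2 fold change -3.58 ± 0.08 (SE), adjusted p = 2.7e-25), *ZISO* (MELO3C017709.2) 3.10 to 8.86 FPKM in *Cmnor* and 24.7 to 46.3 FPKM in *CmNOR/Cmnor* (log2 fold change -2.39 ± 0.06 (SE), adjusted p = 2.1e-24), and *ZDS* (MELO3C024674.2) 18.3 to 36.7 FPKM in *Cmnor* and 73.9 to 124 FPKM in *CmNOR/Cmnor* (log2 fold change -1.70 ± 0.04 (SE), adjusted p = 1.9e-24). At the branch of the pathway, lycopene epsilon cyclase (*LCYE*, MELO3C004633.2) fell less (-1.11 ± 0.08), and lycopene beta cyclase (*LCYB*, MELO3C020744.2) had means of 17.9 FPKM in *Cmnor* and 19.9 FPKM in *CmNOR/Cmnor* (log2 fold change -0.13 ± 0.04 (SE), adjusted p = 0.0053). All 7 of these genes, which the study picked, were lower in the average over stages as deposited, and this choice makes them no independent evidence of a direction. At single stages as deposited, all 7 fell at 33 DAP and after storage, 6 fell and 0 rose at 36 DAP, and 6 fell and 1 rose at 39 DAP. With scaling 6 fell and 0 rose at 39 DAP. In the wider pathway of the deposited annotation, which includes abscisic acid (ABA) genes, 38 of the 79 tested members rose and 28 fell, and with scaling 29 rose and 37 fell, so the larger side turned. Carotenoid cleavage dioxygenase 4 (MELO3C016224.2), which breaks carotenoids down, had 6.29 to 33.9 FPKM in *Cmnor* and 211 to 649.9 FPKM in *CmNOR/Cmnor* (log2 fold change -4.07 ± 0.05 (SE), adjusted p = 3.5e-30).

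Genes of ABA, a hormone of stress and ripening, changed in both directions. MELO3C007127.2, a 9-cis-epoxycarotenoid dioxygenase (NCED3), the enzyme that commits carotenoids to ABA, had 0.0885 to 2.47 FPKM (median 0.217) in the 12 *Cmnor* libraries, against 19.0 to 76.7 FPKM (median 41.4) in the 12 *CmNOR/Cmnor* libraries (log2 fold change -4.71 ± 0.07 (SE), adjusted p = 8.8e-29). The more abundant NCED3 gene MELO3C027057.2 was closer, with 341, 234 and 269 FPKM in *Cmnor*, against 314, 335 and 295 FPKM in *CmNOR/Cmnor* at 36 DAP (log2 fold change -0.18 ± 0.22 (SE), adjusted p = 0.54), but had 5.55, 10.7 and 14.9 FPKM in *Cmnor*, against 237, 229.7 and 178 FPKM in *CmNOR/Cmnor* after storage (log2 fold change -4.32 ± 0.22 (SE), adjusted p = 4.3e-16). On the side of ABA breakdown, ABA 8'-hydroxylase 2 (MELO3C010961.2) had 3.37 to 18.8 FPKM in *Cmnor* and 0.0385 to 1.14 FPKM in *CmNOR/Cmnor* (log2 fold change 3.12 ± 0.09 (SE), adjusted p = 1.1e-22). In the list of 16 ABA genes, 10 rose and 4 fell as deposited, and with scaling 6 rose and 6 fell. Auxin genes were mainly higher, 73 of 109, with 10 lower, and with scaling 59 and 18. Besides IAA14, IAA16-like (MELO3C024660.2) had 52.1 to 175 FPKM in *Cmnor* and 0.263 to 2.59 FPKM in *CmNOR/Cmnor* (log2 fold change 5.81 ± 0.07 (SE), adjusted p = 1.6e-30) and auxin response factor 4 (MELO3C025758.2) had 47.6 to 96.7 FPKM in *Cmnor* and 0.864 to 2.22 FPKM in *CmNOR/Cmnor* (log2 fold change 4.74 ± 0.05 (SE), adjusted p = 4.6e-31).

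Sugar genes were mixed. Among sucrose synthases, sucrose-phosphate synthases and invertases, 13 of the 24 tested members rose and 7 fell, and with scaling 12 rose and 9 fell. Sucrose synthase 5 (MELO3C025101.2, chr9:14598163-14603545), which lies near *PSY1* on chromosome 9, went the opposite way to it, with 269, 281 and 303 FPKM in *Cmnor*, against 183, 220.4 and 199 FPKM in *CmNOR/Cmnor* at 33 DAP. It had 377, 483 and 468 FPKM in *Cmnor*, against 27.0, 14.6 and 20.1 FPKM in *CmNOR/Cmnor* after storage. Its log2 fold changes were 0.50 ± 0.21 at 33 DAP, 2.37 ± 0.21 at 36 DAP, 1.76 ± 0.21 at 39 DAP and 4.40 ± 0.21 after storage, and that at 33 DAP did not hold with scaling. Sucrose-phosphate synthase 4 (MELO3C008101.2) had 1.57 to 19.2 FPKM in *Cmnor* and 0.0848 to 0.454 FPKM in *CmNOR/Cmnor* (log2 fold change 2.64 ± 0.06 (SE), adjusted p = 2.3e-24). Of the SWEET and other sugar transporters, 26 of the 41 tested members rose and 6 fell, and with scaling 20 rose and 10 fell. *VST1* (MELO3C013366.2), which the study names as a sugar transporter of the vacuole although its deposited description is that of a NUCLEAR FUSION DEFECTIVE-like protein, had 2.75 to 19.8 FPKM (median 8.26) in the 12 *Cmnor* libraries, against 424 to 929 FPKM (median 649.6) in the 12 *CmNOR/Cmnor* libraries (log2 fold change -6.09 ± 0.08 (SE), adjusted p = 8.7e-30). *SWEET3* (MELO3C005869.2) had 0.0291 to 0.728 FPKM in *Cmnor* and 4.77 to 106 FPKM in *CmNOR/Cmnor* (log2 fold change -3.99 ± 0.32 (SE), adjusted p = 3.9e-12), with a wide spread in *CmNOR/Cmnor*. For starch genes 11 of the 28 tested members rose and 15 fell, and with scaling 7 rose and 19 fell. The lower side was not the larger one at each stage as deposited: 12 rose and 10 fell at 33 DAP, 9 rose and 10 fell at 36 DAP, 8 rose and 17 fell at 39 DAP and 13 rose and 9 fell after storage. The large subunit of ADP-glucose pyrophosphorylase (MELO3C021412.2), which supplies starch synthesis, had 0.250 to 2.20 FPKM in *Cmnor* and 7.84 to 19.3 FPKM in *CmNOR/Cmnor* (log2 fold change -2.73 ± 0.06 (SE), adjusted p = 3.5e-25), and beta-amylase 1 (MELO3C023067.2), which degrades starch, had 7.36 to 121 FPKM in *Cmnor* and 113 to 241 FPKM in *CmNOR/Cmnor* (log2 fold change -2.63 ± 0.13 (SE), adjusted p = 1.5e-16).

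Cell wall families had shares of higher members between 46.9% and 65.5%, on both sides of the 55.8% of all genes, and a few abundant members fell. Polygalacturonases cut the pectin that glues cells together. *PG1* (MELO3C015128.2) had 1.06, 0.993 and 0.817 FPKM in *Cmnor*, against 1004, 1009 and 975 FPKM in *CmNOR/Cmnor* at 33 DAP. It had 3.63, 8.997 and 3.46 FPKM in *Cmnor*, against 111, 99.4 and 97.6 FPKM in *CmNOR/Cmnor* after storage. *PG2* (MELO3C027277.2) had 1.05 to 12.7 FPKM in *Cmnor* and 74.9 to 763 FPKM in *CmNOR/Cmnor* (log2 fold change -6.07 ± 0.19 (SE), adjusted p = 1.3e-21). *PG3* (MELO3C016494.2) had 0.879 to 7.49 FPKM in *Cmnor* and 40.4 to 419.9 FPKM in *CmNOR/Cmnor* (log2 fold change -5.69 ± 0.18 (SE), adjusted p = 2.1e-21). Both carry the same description, and how reads shared by them were counted is not known. A further polygalacturonase, MELO3C013129.2, had its widest gap after storage, with 0.323, 1.32 and 1.07 FPKM in *Cmnor*, against 383, 336 and 338 FPKM in *CmNOR/Cmnor*. In the list of polygalacturonases and pectate lyases, however, 29 of the 61 tested members rose and 10 fell, and with scaling 25 rose and 14 fell. Among the members that rose was MELO3C006092.2, with means of 18.0 FPKM in *Cmnor* and 1.88 FPKM in *CmNOR/Cmnor* (log2 fold change 2.76 ± 0.05 (SE), adjusted p = 8.2e-27).

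Xyloglucan endotransglucosylase/hydrolases (XTHs), which cut and rejoin wall sugars, gave 16 higher and 4 lower of 27, the same with scaling. XTH22-like MELO3C017480.2 (chr2:22684732-22687054) had 632, 698 and 863 FPKM in *Cmnor*, against 0.513, 0.722 and 0.879 FPKM in *CmNOR/Cmnor* at 39 DAP (log2 fold change 8.74 ± 0.21 (SE), adjusted p = 3.5e-23), but only 42.8, 17.6 and 25.6 FPKM in *Cmnor*, against 0.739, 0.683 and 1.05 FPKM in *CmNOR/Cmnor* at 36 DAP (log2 fold change 3.94 ± 0.21 (SE), adjusted p = 9.4e-16). Its neighbours MELO3C017478.2 and MELO3C017481.2 rose too (3.70 ± 0.21 and 3.59 ± 0.08). The most abundant XTH, MELO3C005245.2, had 82.8 to 302 FPKM in *Cmnor* and 573 to 1121 FPKM in *CmNOR/Cmnor* (log2 fold change -1.99 ± 0.06 (SE), adjusted p = 7.0e-22). MELO3C003441.2 had 15.3 to 129 FPKM in *Cmnor* and 221 to 719 FPKM in *CmNOR/Cmnor* (log2 fold change -3.70 ± 0.08 (SE), adjusted p = 1.3e-25). Of the expansins, which loosen walls, 16 of the 30 tested members rose and 5 fell, the same counts as with scaling, with expansin-like A2 (MELO3C013289.2) at 20.6 to 62.6 FPKM in *Cmnor* and 0.0306 to 1.36 FPKM in *CmNOR/Cmnor* (log2 fold change 4.97 ± 0.09 (SE), adjusted p = 1.1e-26). For cellulose synthases and their relatives 24 of the 37 tested members rose and 5 fell, and with scaling 19 rose and 7 fell. Cellulose synthase catalytic subunit MELO3C023551.2 had 20.7 to 48.3 FPKM in *Cmnor* and 1.31 to 3.92 FPKM in *CmNOR/Cmnor* (log2 fold change 3.29 ± 0.06 (SE), adjusted p = 2.7e-27), while MELO3C016268.2, a cellulose synthase-like G3 gene, had 0.0542 to 0.510 FPKM in *Cmnor* and 5.63 to 79.2 FPKM in *CmNOR/Cmnor* (log2 fold change -3.98 ± 0.07 (SE), adjusted p = 8.1e-27). Of pectinesterases and their inhibitors 30 of the 64 tested members rose and 6 fell, and with scaling 25 rose and 11 fell. Of structural wall proteins such as extensins, 74 of the 113 tested members rose and 11 fell, and with scaling 63 rose and 21 fell. Extensin-1-like MELO3C008366.2 had 651, 467 and 663 FPKM in *Cmnor*, against 1.10, 0.526 and 0.475 FPKM in *CmNOR/Cmnor* at 36 DAP (log2 fold change 8.45 ± 0.29 (SE), adjusted p = 1.2e-19).

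Aquaporins, the water channels of membranes, rose by count in the average over stages and were lower by summed level. At 33 DAP 15 rose and 12 fell as deposited and 11 rose and 13 fell with scaling, so that the rise by count was not seen at this stage. In the average as deposited, 27 of the 34 tested members rose and 3 fell, and with scaling 23 rose and 4 fell, yet the list summed to 2715 to 5161 FPKM (median 3756) in *Cmnor* libraries, against 11234 to 16379 FPKM (median 14080.1) in *CmNOR/Cmnor* libraries. PIP2-10 (MELO3C013347.2) had 31.1 to 86.2 FPKM (median 56.4) in the 12 *Cmnor* libraries, against 5785 to 11048 FPKM (median 8316) in the 12 *CmNOR/Cmnor* libraries (log2 fold change -7.26 ± 0.11 (SE), adjusted p = 9.2e-29). PIP1-2 (MELO3C005685.2) had 103 to 351 FPKM (median 196) in the 12 *Cmnor* libraries, against 2846 to 5155 FPKM (median 4558) in the 12 *CmNOR/Cmnor* libraries (log2 fold change -4.47 ± 0.06 (SE), adjusted p = 3.7e-29). Both are water channels of the plasma membrane and were among the 10 most abundant genes of *CmNOR/Cmnor* flesh. The vacuolar channel TIP4-1 (MELO3C011146.2) had 58.7 to 178 FPKM in *Cmnor* and 0.530 to 1.82 FPKM in *CmNOR/Cmnor* (log2 fold change 5.70 ± 0.05 (SE), adjusted p = 7.8e-33), and NIP5-1 (MELO3C005818.2), known in Arabidopsis to carry boric acid, had 8.52 to 57.4 FPKM in *Cmnor* and 0 to 0.112 FPKM in *CmNOR/Cmnor* (log2 fold change 4.72 ± 0.06 (SE), adjusted p = 1.6e-30).

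Stress genes gave mixed counts. Of dehydrins and late embryogenesis abundant proteins, 5 of the 17 tested members rose and 9 fell (3 rose and 9 fell with scaling), with the neighbours *DHN1* (MELO3C016401.2) and Rab18 (MELO3C016402.2) in opposite directions (-1.61 ± 0.13 and 1.81 ± 0.17). Of heat shock proteins, 25 of the 59 tested members rose and 21 fell, and with scaling 17 rose and 34 fell, so the larger side turned. For class III peroxidases 35 of the 60 tested members rose and 9 fell (28 rose and 13 fell with scaling), and for defense proteins 76 of the 105 tested members rose and 10 fell (62 and 20 with scaling). The shares of higher members were 58.3% for the peroxidases, near the 55.8% of all genes, and 72.4% for the defense proteins. *PR1* (MELO3C018536.2), a marker of salicylic acid responses, had 44.8 to 1151 FPKM (median 292) in the 12 *Cmnor* libraries, against 8.15 to 56.4 FPKM (median 17.8) in the 12 *CmNOR/Cmnor* libraries (log2 fold change 3.57 ± 0.32 (SE), adjusted p = 5.3e-11). Calcium-binding genes on chromosome 3 had their largest difference after storage: MELO3C010863.2 (chr3:30337495-30337842) had log2 fold changes of 0.83 ± 0.21 at 33 DAP, 0.51 ± 0.21 at 36 DAP, 2.67 ± 0.21 at 39 DAP and 5.43 ± 0.21 after storage, and MELO3C010866.2 (chr3:30320193-30320862) of 1.04 ± 0.19 at 33 DAP, 0.88 ± 0.19 at 36 DAP, 2.55 ± 0.19 at 39 DAP and 3.50 ± 0.19 after storage. Those at 33 and 36 DAP did not pass the test with scaling. The difference between storage and 36 DAP was 4.93 ± 0.29 for the first and 2.62 ± 0.27 for the other.

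Phloem markers mostly rose in the average over stages, 29 of 33 with 0 lower, and with scaling 25 and 1. At single stages as deposited, 24 rose and 3 fell at 33 DAP, 27 and 0 at 36 DAP, 25 and 0 at 39 DAP, and 24 and 1 after storage. The phloem filament protein gene MELO3C018579.2 had 628, 634 and 552 FPKM in *Cmnor*, against 358, 346 and 335 FPKM in *CmNOR/Cmnor* at 33 DAP (log2 fold change 0.80 ± 0.15 (SE), adjusted p = 4.3e-05). It had 617, 563 and 658 FPKM in *Cmnor*, against 1.98, 1.84 and 1.70 FPKM in *CmNOR/Cmnor* after storage (log2 fold change 7.75 ± 0.15 (SE), adjusted p = 5.1e-25). The difference at 33 DAP did not pass the test with scaling. The *CmNOR/Cmnor* level was lower at each later stage, whereas *Cmnor* was highest at 36 DAP, at 2399.7 FPKM. Of xylem and secondary wall markers, 24 of the 46 tested members rose and 4 fell (19 rose and 7 fell with scaling). The share of higher members was 52.2%, near the 55.8% of all genes. The highest was fasciclin-like arabinogalactan protein 2 (MELO3C024192.2, means of 81.5 FPKM in *Cmnor* and 7.02 FPKM in *CmNOR/Cmnor*, log2 fold change 3.59 ± 0.08 (SE), adjusted p = 1.1e-24). Of epidermis and rind markers 17 rose and 5 fell of 30, and of seed markers 8 and 2 of 14, shares of higher members near that of all genes. With scaling 9 rose and 6 fell among the epidermis and rind markers and 5 rose and 3 fell among the seed markers, again in the average over stages. At 33 DAP the larger side of the epidermis and rind markers was the lower one, with 8 higher and 10 lower as deposited and 7 and 13 with scaling. As deposited, 17 rose and 1 fell at 36 DAP, 15 and 1 at 39 DAP, and 15 and 3 after storage.

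**Figure D3:**
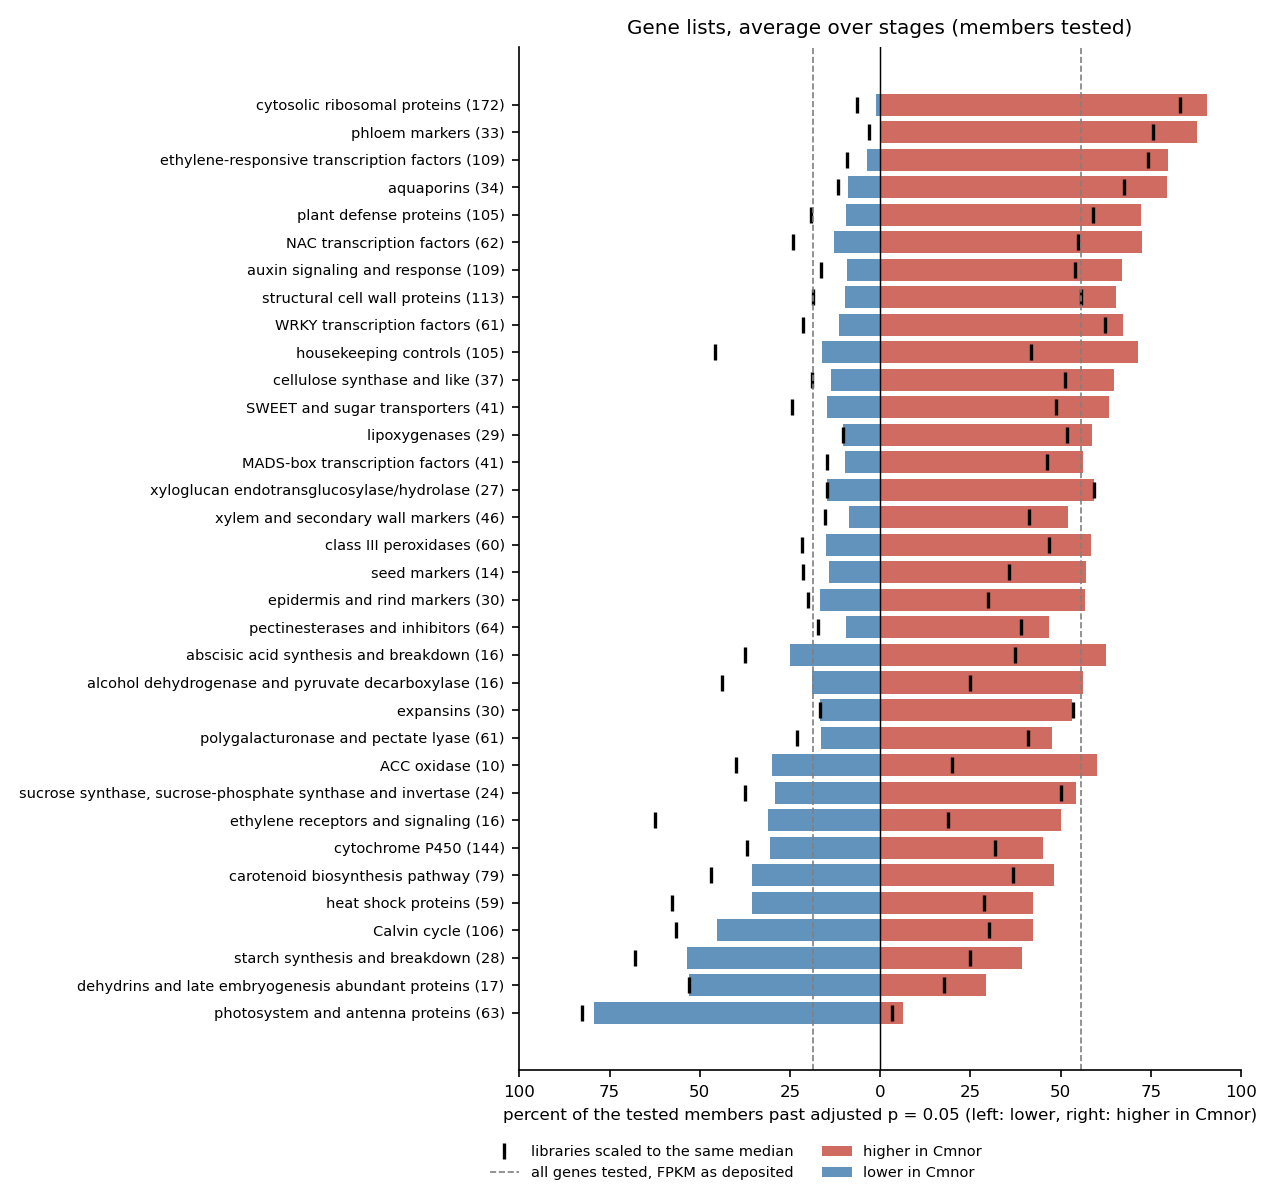
Percent of the tested members of each list with 10 or more members (y axis, members in parentheses) past an adjusted p of 0.05 in the average over stages (x axis, lower in *Cmnor* to the left and higher to the right), with ticks for libraries scaled to the same median and dashed lines for all genes. Photosystem and antenna genes stood on the lower side and phloem markers and ribosomal proteins on the higher side with either scaling.

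**Figure D4:**
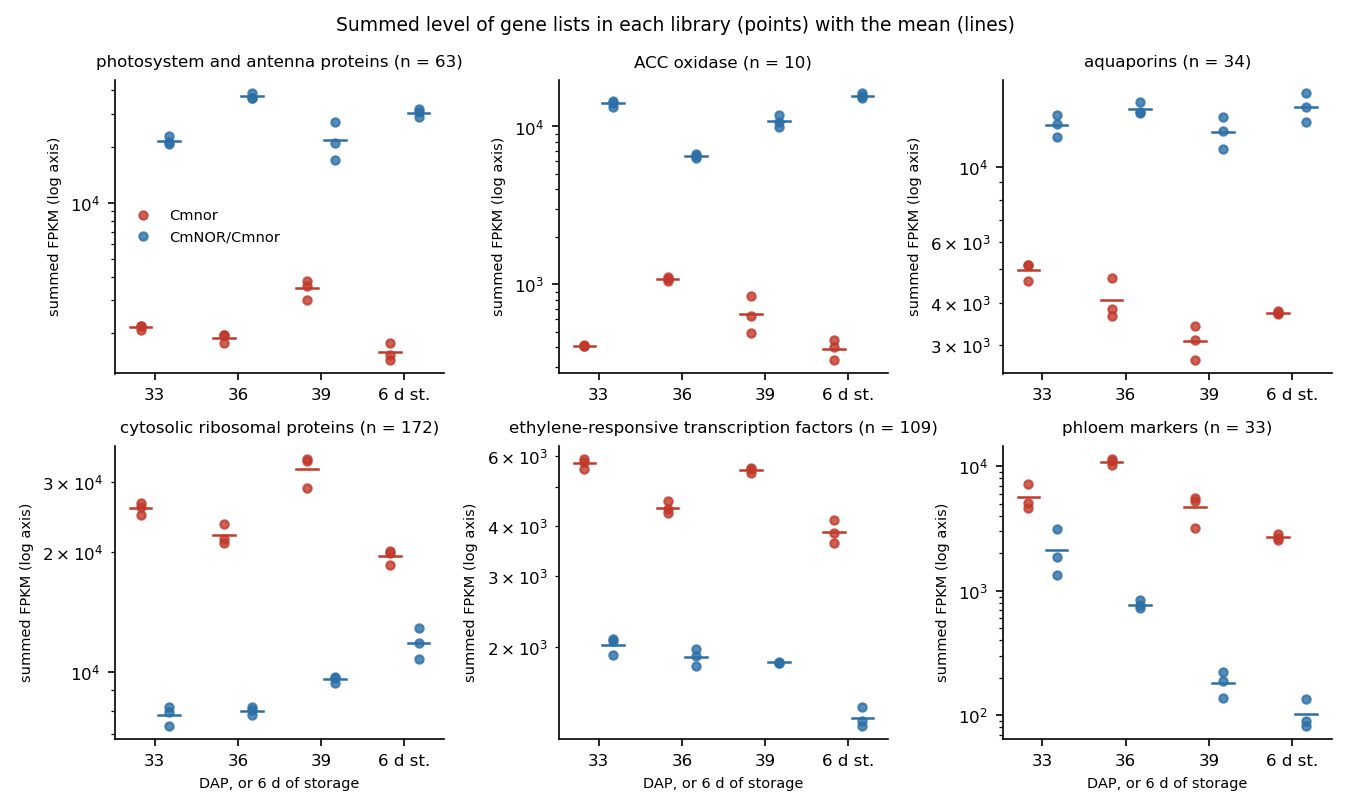
Summed FPKM of 6 gene lists on a log axis (y axis) in each library by stage (x axis), *Cmnor* left and *CmNOR/Cmnor* right, with lines at the mean of 3 libraries. Photosystem, ACC oxidase and aquaporin sums were lower in every *Cmnor* library, and the phloem sum was higher in *Cmnor* at each stage.

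The effect of the genotype differed between stages for many genes. In the test of the difference of effects between 39 and 33 DAP, 1815 genes (7.29%) had a higher log2 fold change at 39 DAP and 2180 (8.75%) a lower one, with 2238 and 1550 under scaling, so that the larger side turned. Of these 3995 genes, 114 were DEGs of opposite directions at the 2 stages. A set of 53 genes was lower in *Cmnor* at 33 DAP and higher at both 36 and 39 DAP, against 2 genes with the reverse order. *ERF110* (MELO3C024989.2) had 0.799, 0.584 and 0.913 FPKM in *Cmnor*, against 54.7, 37.5 and 52.5 FPKM in *CmNOR/Cmnor* at 33 DAP. It had 62.3, 55.2 and 66.3 FPKM in *Cmnor*, against 0.142, 0.211 and 0.182 FPKM in *CmNOR/Cmnor* at 36 DAP. At 39 DAP it had 37.3, 75.5 and 70.01 FPKM in *Cmnor*, against 0.422, 0.348 and 0.242 FPKM in *CmNOR/Cmnor*, and after storage both genotypes were at or under 0.233 FPKM. Thus the *CmNOR/Cmnor* level at 33 DAP and the *Cmnor* levels at 36 and 39 DAP lay in a similar range, and the difference of effects was 10.26 ± 0.30 on the log2 scale (adjusted p = 1.5e-19). The factor ABR1 (MELO3C008014.2) behaved likewise, with 0.793, 0.440 and 0.704 FPKM in *Cmnor*, against 25.9, 19.6 and 27.0 FPKM in *CmNOR/Cmnor* at 33 DAP. It had 152, 202 and 256 FPKM in *Cmnor*, against 0.605, 0.424 and 0.846 FPKM in *CmNOR/Cmnor* at 36 DAP (difference between 39 and 33 DAP 8.23 ± 0.44). So did aquaporin PIP2-3 (MELO3C014239.2), with 20.6, 23.6 and 24.8 FPKM in *Cmnor*, against 299, 166 and 291 FPKM in *CmNOR/Cmnor* at 33 DAP. It had 359, 298 and 305 FPKM in *Cmnor*, against 2.03, 1.76 and 2.45 FPKM in *CmNOR/Cmnor* at 36 DAP (difference between 39 and 33 DAP 8.37 ± 0.48).

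The acyltransferase MELO3C003230.2, whose Arabidopsis relative DCR acts in cutin formation, was lower in *Cmnor* at 33 DAP, higher at 36 and 39 DAP and lower after storage. It had 384, 353 and 391 FPKM in *Cmnor*, against 999.5, 868 and 1035 FPKM in *CmNOR/Cmnor* at 33 DAP. It had 856, 1063 and 999 FPKM in *Cmnor*, against 2.53, 2.78 and 3.30 FPKM in *CmNOR/Cmnor* at 39 DAP. It had 44.4, 39.4 and 43.3 FPKM in *Cmnor*, against 318, 271 and 322 FPKM in *CmNOR/Cmnor* after storage. Its differences of effects were 9.33 ± 0.20 between 39 and 33 DAP and -7.06 ± 0.20 between storage and 36 DAP. Kiwellin-like MELO3C026923.2, of a family of fruit proteins, had 1.86, 1.37 and 2.58 FPKM in *Cmnor*, against 304, 229 and 287 FPKM in *CmNOR/Cmnor* at 33 DAP. It had 13.1, 2.64 and 9.06 FPKM in *Cmnor*, against 1.26, 1.37 and 1.09 FPKM in *CmNOR/Cmnor* at 39 DAP (difference 8.40 ± 0.79). In the other direction, extensin-2 (MELO3C017682.2) was higher in *Cmnor* at 33 DAP, with 22.6, 29.3 and 21.0 FPKM in *Cmnor*, against 0.833, 0.684 and 1.25 FPKM in *CmNOR/Cmnor*, and lower at 39 DAP, with 0.387, 0.354 and 0.829 FPKM in *Cmnor*, against 8.60, 4.45 and 5.64 FPKM in *CmNOR/Cmnor* (difference -5.94 ± 0.37). Cysteine proteinase inhibitor 1 (MELO3C025554.2) stayed under 1 FPKM in *Cmnor* while its *CmNOR/Cmnor* level was highest at 39 DAP, with 0.0911, 0.167 and 0 FPKM in *Cmnor*, against 79.0, 117 and 127 FPKM in *CmNOR/Cmnor* (difference -5.23 ± 0.31). *PG1* had a narrower gap at each later stage, with log2 fold changes of -8.99 ± 0.23 at 33 DAP, -6.51 ± 0.23 at 36 DAP, -5.55 ± 0.23 at 39 DAP and -4.13 ± 0.23 after storage (difference between 39 and 33 DAP 3.44 ± 0.32), and its mean was 5.36 FPKM in *Cmnor* and 103 FPKM in *CmNOR/Cmnor* after storage.

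**Figure D5:**
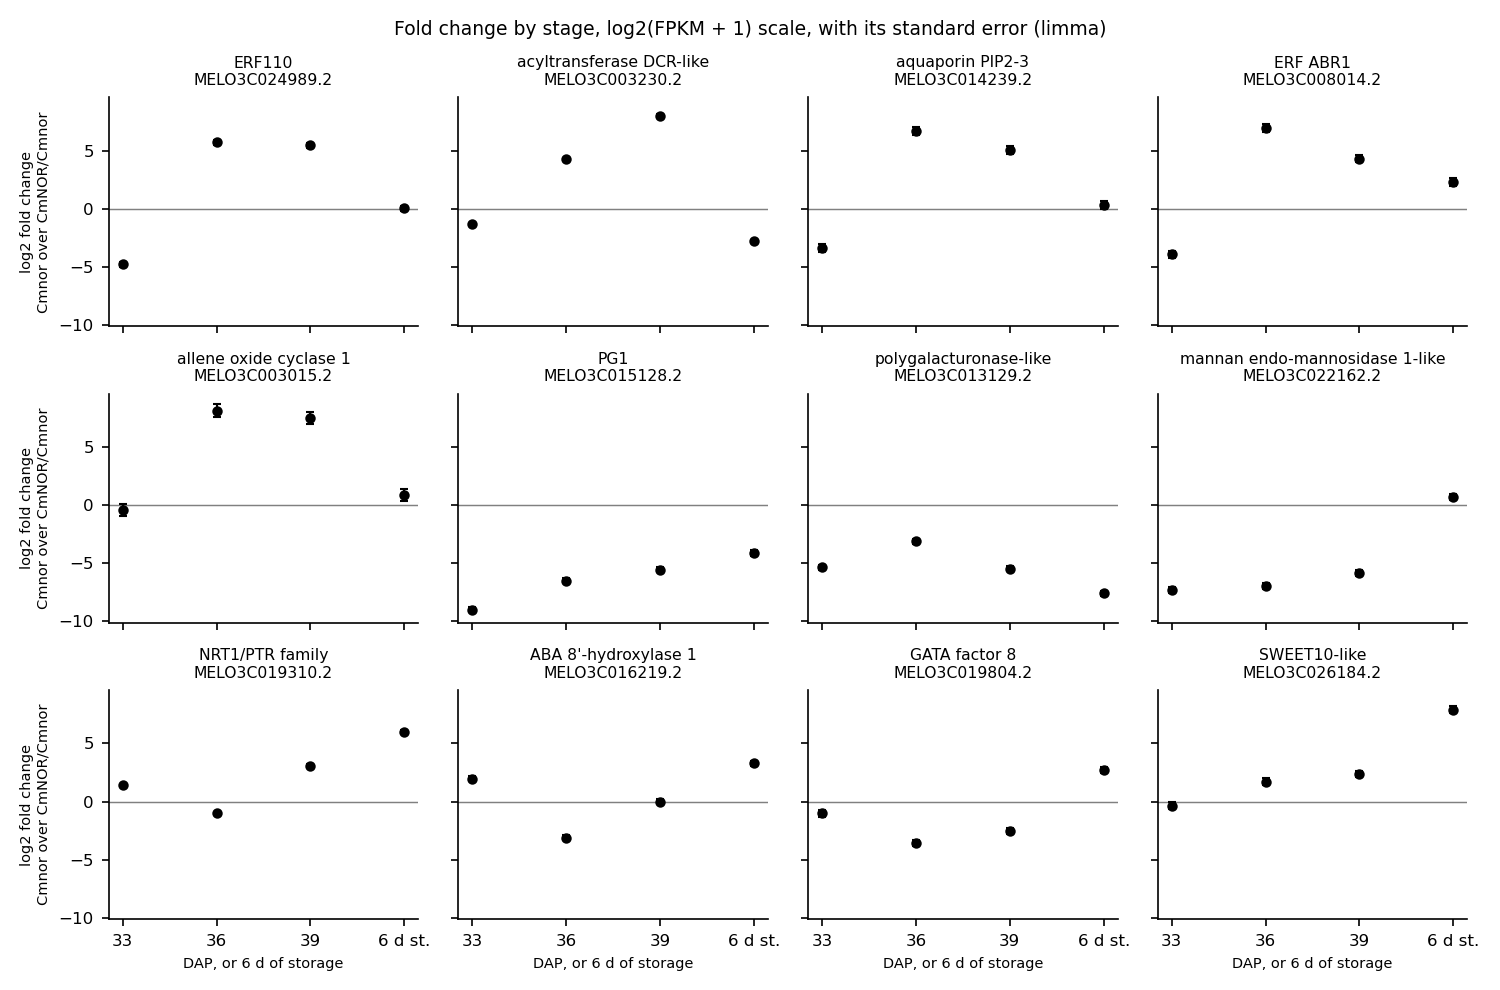
Log2 fold change of *Cmnor* over *CmNOR/Cmnor* with its standard error (y axis) by stage (x axis, DAP or storage) for 12 genes whose effect differed between stages. *ERF110*, ABR1 and PIP2-3 lay below 0 at 33 DAP and above 0 at 36 and 39 DAP, and SWEET10-like and the ABA hydroxylase had their highest value after storage.

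The effect differed between stored fruit and 36 DAP fruit for 4343 genes, 2380 toward a higher log2 fold change after storage (9.56%) and 1963 toward a lower one (7.88%). With scaling these were 2017 and 2181, so that the larger side turned. Stored fruit was also off the plant and older than 36 DAP fruit, and these cannot be told apart from storage here. Opposite DEGs at the 2 times were found for 119 of them, 80 lower at 36 DAP and higher after storage and 39 the reverse. MELO3C022162.2, a mannan endo-beta-mannosidase that cuts wall mannans, had 3.10, 2.06 and 2.03 FPKM in *Cmnor*, against 405, 428 and 450.3 FPKM in *CmNOR/Cmnor* at 36 DAP. It had 23.8, 29.8 and 27.0 FPKM in *Cmnor*, against 17.2, 23.6 and 10.5 FPKM in *CmNOR/Cmnor* after storage (difference 7.68 ± 0.37). ABA 8'-hydroxylase 1 (MELO3C016219.2) had 2.83, 1.72 and 1.86 FPKM in *Cmnor*, against 21.2, 20.3 and 40.6 FPKM in *CmNOR/Cmnor* at 36 DAP. It had 214, 198 and 216 FPKM in *Cmnor*, against 18.5, 22.0 and 21.5 FPKM in *CmNOR/Cmnor* after storage (difference 6.40 ± 0.31). GATA factor 8 (MELO3C019804.2) had 13.1, 14.9 and 19.4 FPKM in *Cmnor*, against 189.6, 166 and 239 FPKM in *CmNOR/Cmnor* at 36 DAP. It had 198, 239 and 237 FPKM in *Cmnor*, against 37.7, 38.1 and 25.5 FPKM in *CmNOR/Cmnor* after storage (difference 6.28 ± 0.37). All 3 were lower in *Cmnor* at 36 DAP and above *CmNOR/Cmnor* after storage, the mannosidase by less than the fold threshold of a DEG.

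A NRT1/PTR family transporter (MELO3C019310.2) had 19.8, 12.2 and 11.9 FPKM in *Cmnor*, against 31.1, 30.9 and 28.1 FPKM in *CmNOR/Cmnor* at 36 DAP. It had 122, 118 and 119 FPKM in *Cmnor*, against 0.926, 0.720 and 0.971 FPKM in *CmNOR/Cmnor* after storage (difference 7.03 ± 0.19). SWEET10-like MELO3C026184.2 (chr2:26865472-26867397), which exports sugar from cells, had 36.0, 32.1 and 62.3 FPKM in *Cmnor*, against 59.7, 54.8 and 49.0 FPKM in *CmNOR/Cmnor* at 33 DAP. It had 530.1, 764 and 464 FPKM in *Cmnor*, against 1.22, 1.53 and 1.52 FPKM in *CmNOR/Cmnor* after storage (difference between storage and 36 DAP 6.17 ± 0.41). Its neighbour SWEET12-like MELO3C026183.2 (chr2:26872431-26874105) was lower in *Cmnor* at 33 DAP, with 0.340, 0.0518 and 0.292 FPKM in *Cmnor*, against 15.1, 16.9 and 17.8 FPKM in *CmNOR/Cmnor*, and after storage had 2.11, 2.18 and 2.04 FPKM in *Cmnor*, against 2.70, 1.82 and 2.16 FPKM in *CmNOR/Cmnor* (adjusted p = 0.95). The glycine-rich wall protein MELO3C031941.2 had 149.6, 205 and 146 FPKM in *Cmnor*, against 0, 0.241 and 0.357 FPKM in *CmNOR/Cmnor* after storage (difference 6.51 ± 0.18). Genes whose effect shrank included allene oxide cyclase 1 (MELO3C003015.2), of jasmonate synthesis, with 405, 488 and 493 FPKM in *Cmnor*, against 0.697, 0.418 and 0.851 FPKM in *CmNOR/Cmnor* at 36 DAP. It had 10.4, 0.509 and 0.782 FPKM in *Cmnor*, against 0.752, 0.890 and 0.518 FPKM in *CmNOR/Cmnor* after storage (difference -7.26 ± 0.78). MELO3C012325.2, the neighbour of MELO3C012324.2 on chromosome 10, had 49.0, 74.9 and 76.4 FPKM in *Cmnor*, against 0.151, 0.179 and 0.318 FPKM in *CmNOR/Cmnor* at 36 DAP. It had 0, 0 and 0.106 FPKM in *Cmnor*, against 0.884, 0.399 and 0.772 FPKM in *CmNOR/Cmnor* after storage (difference -6.47 ± 0.41), so that these neighbours were on opposite sides at 36 DAP.

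The step between no working allele and 1 was next set against the step between 1 and 2. This was a contrast of *Cmnor* minus *CmNOR/Cmnor* with *CmNOR/Cmnor* minus WT, averaged over stages. It is a signed difference that a gene can pass through either step, so it does not tell which step was larger. In this contrast 5705 genes (22.9%) were higher and 1313 (5.27%) lower, with 3119 and 2631 under scaling. The *CmNOR/Cmnor* libraries enter both steps, so the contrast is not independent of the comparison above. It was lowest for MELO3C025798.2 (-8.65 ± 0.20), MELO3C012324.2 (-8.40 ± 0.23) and MELO3C024766.2 (-8.33 ± 0.17), and highest for IAA14 (8.0 ± 0.12) and L-ascorbate oxidase (7.97 ± 0.13). For MELO3C025798.2 the mean over stages was 5.17 FPKM in *Cmnor*, 1732 FPKM in *CmNOR/Cmnor* and 1267 FPKM in WT, and for IAA14 it was 302, 0.516 and 1.12 FPKM. In both genes *CmNOR/Cmnor* was close to WT and far from *Cmnor*. Both were chosen as extremes of this contrast after the values were seen, which favours such a pattern, so it is no separate result.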

How the data were processed

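Flesh RNA was sequenced in 36 libraries, of which the 24 of *Cmnor* and *CmNOR/Cmnor* were compared, grouped by the labels. The authors aligned reads to the melon DHL92 genome with HISAT2, and their processing notes also name TopHat2, StringTie and Cufflinks, without versions. The deposited values are FPKM, with 1 value per gene and library and no read counts, and the read filters, the strand setting and the treatment of shared reads were not stated in any source used. FPKM were not scaled further between libraries. Because FPKM are relative to the total of a library, levels of other genes shift when a few abundant genes change.

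A single limma model (3.58.1, R 4.3.3) of log2(FPKM + 1) was fitted over 36 libraries in 12 groups, with variance allowed to follow the level and Benjamini-Hochberg adjustment over the 24901 genes above 0 in any library. The average over stages weights the 4 stages equally. Depth was estimated from the steps of low FPKM values, of which 56.6 to 62.7% fell within 0.05 of a whole fragment in the libraries compared. This depth covers counting error only. The fits were tested on simulated data with known changes. Genes were matched to lists by the deposited description and pathway columns. The named genes are the 40 genes the study names, the 10 highest and 10 lowest in the average and the 5 at each stage and contrast with a mean of at least 5 FPKM in one group, for the average and the stages without overlap of libraries, and up to 4 highest and 4 lowest and the most abundant member of each list, 346 in all. The members, lists and contrasts were chosen with earlier results of these data known. Alternatives were other pseudocounts, a filter, 3 scalings, the replicate number as a block, other thresholds, only the libraries compared, no variance trend, and each library left out.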

Additional observations from a re-analysis of the deposited data

Results flagged for a closer look

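The effect of the genotype differed between stages in the test of the difference itself for 3995 genes between 39 and 33 DAP and for 4343 genes between 6 d of storage and 36 DAP. Between 39 and 33 DAP, the named genes whose log2 fold change was higher at 39 DAP had differences of 10.26 for MELO3C024989.2, 9.33 for MELO3C003230.2, 8.40 for MELO3C026923.2, 8.37 for MELO3C014239.2, 8.23 for MELO3C008014.2, 3.45 for MELO3C011008.2 and 3.44 for MELO3C015128.2. Those with a lower log2 fold change at 39 DAP had differences of -5.94 for MELO3C017682.2 and -5.23 for MELO3C025554.2. Between storage and 36 DAP, differences toward a higher log2 fold change after storage were 7.68 for MELO3C022162.2, 7.03 for MELO3C019310.2, 6.51 for MELO3C031941.2, 6.40 for MELO3C016219.2, 6.28 for MELO3C019804.2, 6.17 for MELO3C026184.2, 4.93 for MELO3C010863.2 and 2.62 for MELO3C010866.2. Toward a lower one they were -7.26 for MELO3C003015.2, -7.06 for MELO3C003230.2, -6.47 for MELO3C012325.2 and -0.96 for MELO3C025102.2.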

How the results depend on the processing

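The number of DEGs followed the threshold and the pseudocount. Without the fold threshold it was 15729 at 33 DAP, 15612 at 36 DAP, 15358 at 39 DAP, 15573 after storage, 18506 in the average, 10863 and 10915 for the differences of effects (39 minus 33 DAP, and storage minus 36 DAP) and 16500 for the contrast of alleles. With log2(FPKM + 5) these counts were 3935, 4237, 4159, 4340, 3772, 1807, 2320 and 3937. With log2(FPKM + 0.1) the average gave 10075 and the difference between 39 and 33 DAP 6120. The other scalings left the totals within 1.5 times but changed the split: 80.0% of the DEGs of the average were higher in *Cmnor* as deposited, 65.5% with upper-quartile, 62.8% with TMM-type and 55.1% with median scaling, and for 39 minus 33 DAP the share was 45.4%, 51.1%, 67.7% and 59.1%. With the median scaling the median of 7 of the lists changed sign: ACC oxidase, ethylene receptors and signaling, carotenoid pathway, ABA, heat shock proteins, housekeeping controls and the sugar genes of the study. For single genes, median scaling turned NAC56 to -0.05 in the average, ACC oxidase MELO3C019735.2 to -0.44 and calcium-binding MELO3C010863.2 to -0.16, both at 36 DAP, and sucrose synthase 5 to -0.18 at 33 DAP, for which TMM-type scaling gave -0.10. Leaving out each of the 36 libraries in turn, the WT ones as an alternative chosen after seeing the data, gave 6922 to 7471 DEGs at 33 DAP, 7117 to 7307 at 36 DAP, 6973 to 7354 at 39 DAP, 7404 to 7458 after storage, 6625 to 6724 in the average, 3756 to 4309 and 4196 to 4494 for the differences of effects and 6948 to 7144 for the contrast of alleles. Sucrose synthase 5 at 33 DAP and MELO3C010863.2 at 36 DAP lost their call in some of these fits. With the replicate number as a block the counts were 7134, 7167, 7109, 7430, 6665, 3997, 4351 and 7017, and no call changed among the 164 pairs of gene and contrast given in the text. The numbers do not pair the samples by design. Deviations of same-numbered *Cmnor* and *CmNOR/Cmnor* libraries correlated with r of 0.363, 0.717 and 0.385 at 33 DAP but not at the other stages. At 33 DAP some differently numbered libraries correlated too, *Cmnor* 1 with *CmNOR/Cmnor* 3 (r of 0.54) and *Cmnor* 3 with *CmNOR/Cmnor* 1 (0.311). Pairs of a second library with another number had negative r, so that the second libraries of both genotypes stood apart. Without the second libraries of both genotypes at 33 DAP, an alternative chosen after seeing the data, the counts were 7141 at 33 DAP, 6663 in the average and 4108 for 39 minus 33 DAP. The fit with *Cmnor* and *CmNOR/Cmnor* libraries alone was not run for the contrast of alleles, which needs WT. Of 7538 values of these pairs under alternatives, 7494 kept direction and call. FPKM give no counts, so that the counting error of low genes is known only through the estimated depth, and the 3 libraries of a group limit the precision of each stage.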

Other observations

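Further genes with large differences were not described above. The E3 ubiquitin ligase MELO3C002598.2 (RMA1H1-like), of an enzyme class that tags proteins for breakdown, had 3.52 to 23.0 FPKM (median 5.32) in the 12 *Cmnor* libraries, against 412 to 2106 FPKM (median 958) in the 12 *CmNOR/Cmnor* libraries (log2 fold change -7.05 ± 0.10 (SE), adjusted p = 1.0e-28). The flavin oxidoreductase MELO3C002839.2 (FOX5-like) had 0.502 to 3.45 FPKM in *Cmnor* and 14.6 to 188 FPKM in *CmNOR/Cmnor* (log2 fold change -4.15 ± 0.14 (SE), adjusted p = 1.6e-20). A family 19 chitinase, MELO3C007961.2, which cuts fungal chitin, had 9.22, 8.96 and 12.05 FPKM in *Cmnor*, against 553, 556 and 700.3 FPKM in *CmNOR/Cmnor* at 33 DAP (log2 fold change -5.77 ± 0.52 (SE), adjusted p = 1.3e-10). At 39 DAP it did not pass the test (log2 fold change -0.10 ± 0.52, adjusted p = 0.95). In the higher direction, root phototropism protein 2 (MELO3C016232.2) had 65.6 to 452 FPKM (median 257) in the 12 *Cmnor* libraries, against 0.169 to 2.70 FPKM (median 0.541) in the 12 *CmNOR/Cmnor* libraries (log2 fold change 6.99 ± 0.09 (SE), adjusted p = 3.5e-30), and a secreted glycoprotein of the EP1 kind (MELO3C016135.2) had 895, 1018 and 1015 FPKM in *Cmnor*, against 1.52, 2.17 and 2.33 FPKM in *CmNOR/Cmnor* at 39 DAP (log2 fold change 8.35 ± 0.32 (SE), adjusted p = 9.7e-19). The phloem lectin gene MELO3C002874.2 (PHLOEM PROTEIN 2-LIKE A1-like) had 959 to 4337 FPKM in *Cmnor* and 26.8 to 1198 FPKM in *CmNOR/Cmnor* (log2 fold change 3.57 ± 0.14 (SE), adjusted p = 6.2e-19). In the cellulose synthase-like G3 family, MELO3C016270.2 (chr7:22970931-22975448) had 7.21 to 24.98 FPKM in *Cmnor* and 1.48 to 13.5 FPKM in *CmNOR/Cmnor* (log2 fold change 1.63 ± 0.10 (SE), adjusted p = 3.6e-14), opposite to MELO3C016268.2 (chr7:22954451-22959119) on the same stretch of chromosome 7.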
